A study of Homo sapiens with 12 samples.

Results

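CYP24A1 and 4 further genes of the vitamin D receptor axis were followed in parental and SDS22-degron HCT116 cells, with and without doxycycline and auxin (Dox/IAA). The group was selected by gene name and holds CYP24A1, CYP27B1, VDR, RXRA and RXRB, 5 of the 58233 genes in the deposited table. CYP24A1 was chosen because it was among the genes that fell most with Dox/IAA in parental cells. Its values in every comparison that uses parental libraries are therefore a description, without a test, as are the values of the other 4 genes for Dox/IAA in parental cells. Each of the 5 genes had enough counts to be tested elsewhere.

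HCT116 is a human colorectal carcinoma line, and all 12 libraries came from HCT116 Tet-OsTIR1 cells, in which the plant F-box protein OsTIR1 is expressed from AAVS1 under tetracycline control. The parental line has no further change, whereas in the SDS22-degron line, expanded from colonies after drug selection, both alleles of PPP1R7 encode SDS22 fused to mAID and mClover. Dox induces OsTIR1 and the auxin IAA then directs tagged SDS22 to the proteasome. Each line was either untreated or exposed for 48 h to 2 µg/ml Dox with 500 µM IAA, with 3 libraries in each of the 4 groups. Dox and IAA were given together, so their separate effects cannot be told apart, and no vitamin D compound is among the labelled treatments. The degron acts on the protein, so PPP1R7 mRNA (log2 fold change 0.12 with Dox/IAA in SDS22-degron cells, adjusted p = 0.27, from the quasi-likelihood test of edgeR with Benjamini-Hochberg correction, as throughout) does not check it. The 3 libraries of a group are labelled as biological replicates, and p-values measure the spread between them. These p-values do not cover variation between colonies of an edited line. In comparisons between the lines, effects of colony expansion, drug selection and the tag on SDS22 cannot be told apart.

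Reads counted on genes ranged from 12133915 to 14657508 per library, and levels are given as CPM, the counts of a gene scaled to a common library size, with TMM (trimmed mean of M-values) factors. Of 8 markers of colorectal epithelium, 6 were above 1 CPM in every group, while VIL1 had at most 2 counts and CDX1 none. Their summed level was between 2639 and 2942 CPM in untreated and between 1944 and 2345 CPM in Dox/IAA-treated parental cells, and between 2497 and 3051 CPM in untreated and between 2335 and 2564 CPM in treated SDS22-degron cells. Of 5 fibroblast markers only COL1A1 was above 1 CPM, and the summed level of the list moved with Dox/IAA, from between 9.86 and 13.7 to between 17.2 and 22.8 CPM in parental cells and from between 13.5 and 15.7 to between 21.2 and 31.7 CPM in SDS22-degron cells. COL1A2, DCN and LUM were at 0. None of 5 immune markers was above 1 CPM in a group, and of 4 endothelial markers only VWF was, in treated SDS22-degron cells (1.26 ± 0.330 CPM, SD, n = 3). The part of these markers in the results below was not tested. In bulk RNA, fewer cells that express a gene and less of its RNA per cell cannot be told apart.

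Vitamin D acts through its hormonal form, 1,25-dihydroxyvitamin D. CYP27B1, a mitochondrial P450, makes this form, and CYP24A1, a mitochondrial 24-hydroxylase, inactivates it. The hormone binds the nuclear receptor VDR, which pairs with a retinoid X receptor (RXR) on DNA, typically at a pair of half-sites separated by 3 bases. CYP24A1 is the classical VDR target, so that the pathway induces its own catabolic enzyme, and the colon epithelium is one of the tissues that respond to the hormone.

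The RXRA promoter is shown because RXRA was the receptor gene whose level in treated SDS22-degron cells stood above every other library. The table of RefSeq promoters (GRCh38.p14, 250 bases before to 50 bases after each start) had entries for RXRA and RXRB, but none for CYP24A1, VDR and CYP27B1. The 250 bases before an RXRA start on chromosome 9 (134326205 to 134326454, plus strand, within the gene's deposited interval) are printed with GC boxes (GGGCGG on either strand, overlapping matches counted) in capitals.

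RXRA: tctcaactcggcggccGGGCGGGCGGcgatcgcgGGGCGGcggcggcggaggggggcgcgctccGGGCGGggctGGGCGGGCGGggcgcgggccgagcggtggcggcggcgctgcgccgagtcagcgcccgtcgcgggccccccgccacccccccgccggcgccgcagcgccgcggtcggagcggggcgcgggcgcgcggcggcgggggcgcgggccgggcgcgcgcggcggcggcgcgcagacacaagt

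This stretch held 6 GC boxes and was 89.2% G and C. At least 1 such box was found in 42.6% of the 35116 promoters in the table, and 97.8% of promoters held fewer than RXRA.

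A VDR-type direct repeat was sought in the 250 bases before the start of RXRB and of those VDR target genes that fell in treated SDS22-degron cells and had an entry (CLDN2, IGFBP3 and SPP1, described below). Each half-site was scored against the sequences AGGTCA or AGTTCA or else GGGTCA or GGTTCA, whichever was closest, with 3 free bases between half-sites, on both strands. The best stretch of each gene is given with its half-sites in capitals.

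RXRB: AGAACAggaAGTTCC

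CLDN2: AGTTCAgttAAGAAA

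IGFBP3: GGGTGGcccAGGACA

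SPP1: GTGTCAtgaGGTTTT

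Each of these had 3 mismatches in all, and 67.7% of promoters held a stretch with 3 mismatches or fewer. The best stretch of RXRA had 4, as good a match as 99.6% of promoters held. The stretches lie at chromosome 6, 33200859 to 33200873 (RXRB), chromosome X, 106900039 to 106900053 (CLDN2), chromosome 7, 45921310 to 45921324 (IGFBP3), and chromosome 4, 87975624 to 87975638 (SPP1). They are minus, plus, plus and minus strand, in this order.

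CYP24A1 fell with Dox/IAA in SDS22-degron cells to 32.1% of its untreated level, and it was also lower in treated than in untreated parental cells and lower in SDS22-degron than in parental cells. CYP24A1 (ENSG00000019186, chromosome 20, 54153449 to 54173973, minus strand) was at 280, 228 and 326 CPM in the 3 untreated parental libraries. In Dox/IAA-treated parental libraries it was at 47.5, 62.2 and 83.4 CPM. Untreated SDS22-degron libraries were thus not at the untreated parental level, but at 57.2, 66.0 and 83.4 CPM. The lowest values were those of treated SDS22-degron libraries, at 12.5, 25.1 and 28.9 CPM, from 164, 325 and 351 counts. Treated parental and untreated SDS22-degron libraries overlapped almost fully, and neither of them overlapped with the other 2 groups.

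The log2 fold change with Dox/IAA in SDS22-degron cells was −1.64 (standard error 0.233, 95% interval −2.13 to −1.15, adjusted p = 1.14e-05). This comparison contrasts none of the parental libraries on which the gene was chosen. The spread behind its standard error, interval and adjusted p was, however, estimated from all 12 libraries. The call also held when only the SDS22-degron groups were fitted. With Dox/IAA in SDS22-degron cells, in the fit of all libraries, 26% of the 16657 tested genes were called higher and 25.5% were called lower at an adjusted p under 0.05. The groups did not overlap for 59.9% of all tested genes in this comparison, for 41.3% with Dox/IAA in parental cells, for 52.9% between the treated lines and for 43.5% between the untreated lines. Among the 10851 genes with a mean of at least 10 CPM, CYP24A1 had a fold change that ranked 16 from the lowest in SDS22-degron cells.

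As a description, the log2 fold change with Dox/IAA in parental cells was −2.11, or 23.1% of the untreated level, which ranked 3 from the lowest among the 10851 genes. Just below it were TNFSF18 (−4.21) and SUSD2 (−2.48), and just above it DDIT3 (−2.07) and DDIT4 (−2.02). TNFSF18 and SUSD2 were lower with Dox/IAA in SDS22-degron cells too (−2.35 and −2.22), whereas DDIT3 and DDIT4 were at 0.58 and 0.22 there and did not pass the test. Untreated SDS22-degron cells had 24.8% of the untreated parental level (log2 fold change −2.01), and treated SDS22-degron cells had 34.4% of the treated parental level (−1.54). These comparisons share libraries with the one that chose the gene. The difference between the Dox/IAA effects of both lines was 0.47 on the log2 scale. It is given without a test, because the parental libraries in it also chose the gene.

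**Figure D1:**
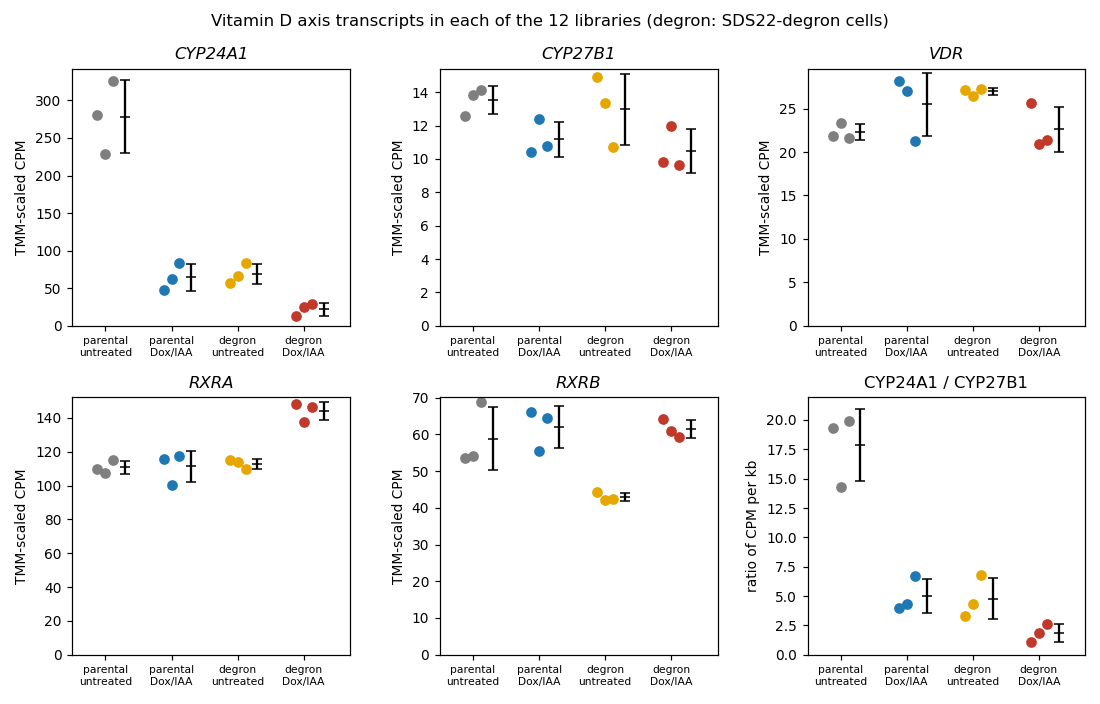
TMM-scaled CPM (linear axes from 0) of CYP24A1, CYP27B1, VDR, RXRA and RXRB in each of the 12 libraries, and the ratio of CYP24A1 to CYP27B1 in CPM per kb, with points for libraries and bars for the mean ± SD (n = 3). CYP24A1 lies between 12.5 and 28.9 CPM in treated SDS22-degron libraries and between 228 and 326 CPM in untreated parental libraries, while the other 4 genes span much narrower ranges.

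CYP27B1 mRNA, which encodes the 1α-hydroxylase, was low and changed little beside CYP24A1. CYP27B1 (ENSG00000111012, chromosome 12, 57762334 to 57768986, minus strand) was at 12.6, 13.8 and 14.2 CPM in untreated parental libraries and at 10.4, 12.4 and 10.8 CPM in treated ones. In SDS22-degron cells it was at 14.9, 13.3 and 10.7 CPM untreated and at 9.83, 12.0 and 9.62 CPM with Dox/IAA. The groups of SDS22-degron cells overlapped, and those of parental cells did not, as for 41.3% of all tested genes. The log2 fold change with Dox/IAA was −0.31 in SDS22-degron cells (95% interval −0.59 to −0.03, adjusted p = 0.0584) and, as a description, −0.27 in parental cells. Without SDS22-degron untreated library 3 it was −0.43 (adjusted p = 0.0134) and without SDS22-degron treated library 2 it was −0.42 (adjusted p = 0.0249), so the call turned on single libraries. It also passed with the replicate number as a block (adjusted p = 0.042). Between the lines the log2 fold change was −0.06 untreated (95% interval −0.33 to 0.21, adjusted p = 0.789) and −0.09 treated (−0.38 to 0.19, adjusted p = 0.612). The difference between the Dox/IAA effects was −0.04 (adjusted p = 0.926). CYP27B1 overlaps METTL1 on the same strand, a tRNA methyltransferase gene with 2768 counts in all libraries against 1872 for CYP27B1. METTL1 fell by 0.90 on the log2 scale with Dox/IAA in SDS22-degron cells, and how reads in the shared stretch were assigned was not tested.

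Per length, mRNA of the catabolic enzyme was above that of the activating one in every library, by a margin that differed between groups. In CPM per kb, the ratio of CYP24A1 to CYP27B1 was 19.3, 14.3 and 19.9 in untreated parental libraries and 3.95, 4.35 and 6.71 in treated ones. It was 3.32, 4.29 and 6.76 in untreated SDS22-degron libraries and 1.10, 1.82 and 2.60 in treated ones. The treated SDS22-degron libraries were below all others and the untreated parental libraries above all others. These ratios rest mainly on CYP24A1 and are given without a test.

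VDR, the receptor itself, stayed between 20.9 and 28.2 CPM in all 12 libraries. It did not pass the test, which had no replicate block, although several comparisons came close to its threshold. VDR (ENSG00000111424, chromosome 12, 47841537 to 47943048, minus strand) was at 21.8, 23.3 and 21.6 CPM in untreated and at 28.2, 27.0 and 21.3 CPM in treated parental libraries. In SDS22-degron libraries it was at 27.2, 26.4 and 27.3 CPM untreated and at 25.6, 20.9 and 21.4 CPM with Dox/IAA. The SDS22-degron groups did not overlap, as for 59.9% of all tested genes, whereas in parental cells treated library 3 lay below the untreated ones. Its log2 fold change with Dox/IAA was −0.25 in SDS22-degron cells (95% interval −0.47 to −0.03, adjusted p = 0.0526) and, as a description, 0.19 in parental cells. The difference between these effects was −0.45 (−0.76 to −0.13, adjusted p = 0.0533). VDR was 0.27 higher on the log2 scale in untreated SDS22-degron than in untreated parental cells (0.05 to 0.50, adjusted p = 0.0597), and the treated lines differed by −0.17 (−0.39 to 0.05, adjusted p = 0.203).

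For VDR these values lie close to the threshold, and single libraries as well as other settings of the fit moved them across it. Without SDS22-degron treated library 1 the fold change with Dox/IAA was −0.36 (adjusted p = 0.0126), and the difference between the effects was −0.56 (adjusted p = 0.0199). That difference was −0.50 without parental untreated library 2 (adjusted p = 0.0351) and −0.56 without parental treated library 3 (adjusted p = 0.0113). Without parental treated library 3 the treated lines differed by −0.29 (adjusted p = 0.033), and without parental untreated library 2 the untreated lines differed by 0.33 (adjusted p = 0.0482). With the replicate number as a block, VDR passed for Dox/IAA in SDS22-degron cells (adjusted p = 0.031), between the untreated lines (adjusted p = 0.036) and for the difference between the effects (adjusted p = 0.0287).

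The RXR genes encode the partners with which VDR binds DNA, and both rose with Dox/IAA in SDS22-degron cells. RXRA (ENSG00000186350, chromosome 9, 134317098 to 134440585, plus strand) was at 110, 108 and 115 CPM in untreated and at 116, 101 and 117 CPM in treated parental libraries. It was at 115, 114 and 110 CPM in untreated SDS22-degron libraries. In treated SDS22-degron libraries it was at 148, 138 and 146 CPM, above all 9 other libraries. The share of genes with a group above or below all 9 other libraries was not computed. Pairs of groups did not overlap for 59.9% of all tested genes with Dox/IAA in SDS22-degron cells and for 52.9% between the treated lines. The log2 fold change with Dox/IAA in SDS22-degron cells was 0.35 (standard error 0.0673, adjusted p = 0.000244), a rise to 128% of the untreated level. Between the treated lines it was 0.37 (standard error 0.0675, adjusted p = 0.0002), in a comparison where 21.8% of tested genes were called higher and 23.1% lower. The untreated lines did not pass the test (0.03, 95% interval −0.12 to 0.17, adjusted p = 0.823), and the value for Dox/IAA in parental cells was 0.01.

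RXRB (ENSG00000204231, chromosome 6, 33193588 to 33200688, minus strand) had its low point in untreated SDS22-degron cells rather than its high point in treated ones. Untreated parental libraries had 53.7, 54.1 and 68.7 CPM and treated ones 66.1, 55.5 and 64.6 CPM. Untreated SDS22-degron libraries were at 44.3, 42.2 and 42.5 CPM, below all 9 other libraries. With Dox/IAA they were at 64.3, 60.8 and 59.3 CPM, within the range of treated parental cells. Pairs of groups did not overlap for 59.9% of all tested genes with Dox/IAA in SDS22-degron cells and for 43.5% between the untreated lines. The log2 fold change with Dox/IAA in SDS22-degron cells was 0.52 (standard error 0.0924, adjusted p = 0.000133). The untreated SDS22-degron cells were lower than untreated parental cells by −0.45 (standard error 0.0928, adjusted p = 0.00123), in a comparison where 13.2% of tested genes were called higher and 15% lower. The treated lines differed by −0.01 (95% interval −0.20 to 0.18, adjusted p = 0.915), and the value for Dox/IAA in parental cells was 0.08. The rise with Dox/IAA and the lower untreated level share the untreated SDS22-degron libraries. RXRB overlaps SLC39A7, a zinc transporter gene on the opposite strand with 32719 counts against 8708 for RXRB. The library kit keeps the strand, but the counting setting is not given in the sources used here. SLC39A7 was at 0.06 for Dox/IAA in SDS22-degron cells (adjusted p = 0.369) and at 0.03 between the untreated lines (adjusted p = 0.777).

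**Figure D2:**
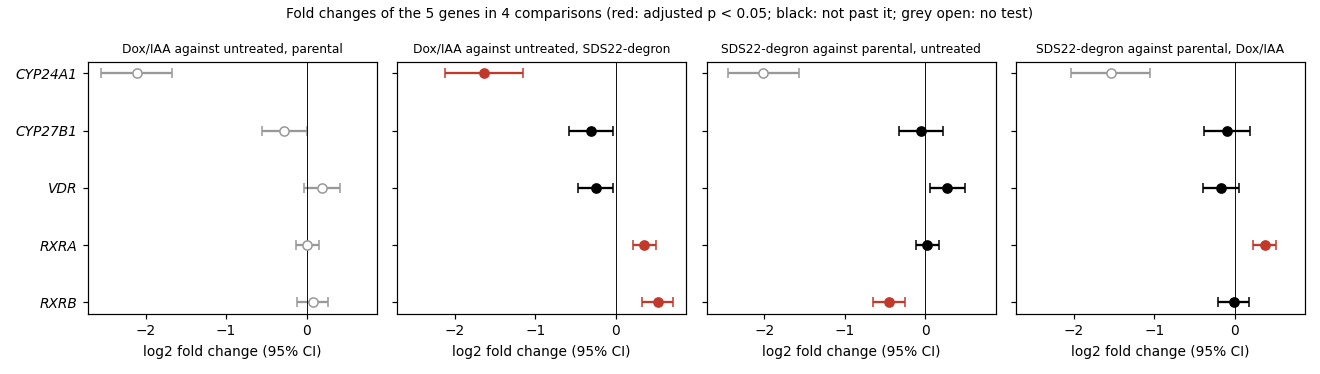
Log2 fold changes of the 5 genes with 95% confidence intervals for Dox/IAA in each line and for SDS22-degron against parental cells, untreated and treated. Red points passed an adjusted p of 0.05, black points did not, and open grey points were not tested. The intervals of open grey points are a description and do not serve as a test. CYP24A1 is the gene farthest to the left in all 4 panels, and RXRA and RXRB lie right of 0 for Dox/IAA in SDS22-degron cells.

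The effect of Dox/IAA on both RXR genes differed between the lines, by 0.35 for RXRA (95% interval 0.15 to 0.55, adjusted p = 0.0205) and by 0.44 for RXRB (0.17 to 0.71, adjusted p = 0.0294). Of the 4 genes tested for this difference these 2 passed, and among all tested genes 6.03% were called higher and 8.35% lower. Both calls depended on single libraries. For RXRA the difference was 0.32 without parental untreated library 3 (adjusted p = 0.0545), 0.33 without SDS22-degron untreated library 3 (adjusted p = 0.0519) and 0.32 without SDS22-degron treated library 3 (adjusted p = 0.051). For RXRB it was 0.31 without parental untreated library 3 (adjusted p = 0.0858), 0.38 without parental treated library 2 (adjusted p = 0.062) and 0.40 without SDS22-degron treated library 1 (adjusted p = 0.0702). It was 0.43 without SDS22-degron untreated library 2 (adjusted p = 0.0714) and 0.43 without SDS22-degron untreated library 3 (adjusted p = 0.0622).

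On a scale per length, the order of the 5 genes changed between the groups. In untreated parental cells CYP24A1 came first at 70.0 ± 12.2 CPM per kb (SD, n = 3), before RXRB at 15 ± 2.18, RXRA at 10.2 ± 0.359, VDR at 3.93 ± 0.165 and CYP27B1 at 3.93 ± 0.244. VDR and CYP27B1 did not differ beyond their spread. In treated parental cells CYP24A1 (16.2 ± 4.54 CPM per kb) and RXRB (15.8 ± 1.46) were within their spread, followed by RXRA (10.3 ± 0.867), VDR (4.49 ± 0.647) and CYP27B1 (3.25 ± 0.306). In untreated SDS22-degron cells CYP24A1 was at 17.3 ± 3.36 CPM per kb, RXRB at 11 ± 0.290, RXRA at 10.4 ± 0.252, VDR at 4.75 ± 0.0804 and CYP27B1 at 3.77 ± 0.622. In treated SDS22-degron cells both RXR genes came first, RXRB at 15.7 ± 0.651 and RXRA at 13.3 ± 0.514 CPM per kb, and CYP24A1 (5.58 ± 2.16) was within its spread of VDR (3.99 ± 0.456), with CYP27B1 at 3.05 ± 0.380. The summed level of RXRA and RXRB over that of VDR was between 4.36 and 4.58 in untreated SDS22-degron libraries and between 6.67 and 7.68 in treated ones. In parental libraries this ratio was between 5.77 and 7.39 untreated and between 4.93 and 7.29 treated, and the groups overlapped.

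Of the 5 lists of vitamin D and RXR genes, which hold 85 genes besides these 5, 54 genes had enough counts to be tested. With Dox/IAA in SDS22-degron cells 22 of them rose and 8 fell, beside the 26% and 25.5% of all genes given above, and their median log2 fold change was 0.20 against 0.00 over all tested genes. With Dox/IAA in parental cells 13 rose and 10 fell, where 15.9% of all tested genes were called higher and 15.7% lower. Between the treated lines 22 were higher and 10 lower in SDS22-degron cells, beside 21.8% and 23.1% of all genes, and between the untreated lines 12 were higher and 11 lower, beside 13.2% and 15%. The effect of Dox/IAA differed between the lines for 10 of the 54 genes, 8 with a higher and 2 with a lower value in SDS22-degron cells, where 6.03% and 8.35% of all genes were called.

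Among genes known as direct or frequent VDR targets, other than CYP24A1, the changes went both ways. Of 40 such genes 22 were tested, and the other 18 had at most 12 counts in any library, among them the intestinal calcium channel genes TRPV6 and TRPV5 and the bone gene BGLAP. With Dox/IAA in SDS22-degron cells 9 targets rose and 4 fell, with a median log2 fold change of 0.06, beside 26% and 25.5% of all genes. In parental cells 4 rose (ABCB1, CDH1, DKK1 and LRP5) and 3 fell (CLDN2, GADD45A and IGFBP3), near the 15.9% and 15.7% called over all genes. The call of CDH1 there (0.36, adjusted p = 0.045) was lost without parental untreated library 2 (0.20, adjusted p = 0.207) or 3 (0.36, adjusted p = 0.0928), without treated library 1 (0.25, adjusted p = 0.2) or 3 (0.34, adjusted p = 0.116), and with only the groups compared. With both lines treated, 13 were higher and 2 lower (CA2 and SLC37A2) in SDS22-degron cells, beside 21.8% and 23.1% of all genes. Between the untreated lines 8 were higher and 3 lower (GADD45A, SEMA3B and SLC37A2), beside 13.2% and 15%.

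The 4 targets that fell with CYP24A1 in SDS22-degron cells were IGFBP3, CLDN2, SPP1 and CA2. IGFBP3, which encodes a binding protein of insulin-like growth factors, fell from 4.23 ± 0.565 to 1.63 ± 0.421 CPM (SD, n = 3, log2 fold change −1.38, adjusted p = 0.000202). In parental cells it fell from 2.27 ± 0.732 to 0.260 ± 0.183 CPM (−3.10, adjusted p = 4.06e-05). CLDN2, the gene of a cation-conducting tight junction protein, fell from 2.20 ± 0.686 to 1.14 ± 0.278 CPM in SDS22-degron cells (−0.93, adjusted p = 0.0352) and from 1.92 ± 0.725 to 0.261 ± 0.254 CPM in parental cells (−2.85, adjusted p = 0.000361). These transcripts are rare, with means of at most 4.23 CPM. CA2, which encodes carbonic anhydrase 2, fell from 41.0 ± 2.11 to 26.6 ± 2.35 CPM in SDS22-degron cells (−0.62, adjusted p = 0.000107), while its value in parental cells was −0.20 (adjusted p = 0.152). SPP1, the gene of osteopontin, was at 2.05 ± 0.0793 CPM in untreated and 1.08 ± 0.545 CPM in treated SDS22-degron cells (−0.93, adjusted p = 0.0377). It was rare too, with 26 to 31 counts per untreated and 6 to 19 per treated library there. Its value in parental cells was −0.10 (adjusted p = 0.875).

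The calls of CLDN2 and SPP1 depended on single libraries and on the tool. CLDN2 lost its call without SDS22-degron untreated library 1 (−0.65, adjusted p = 0.19) and without treated library 1 (−1.03, adjusted p = 0.0517), 2 (−1.03, adjusted p = 0.0502) or 3 (−0.76, adjusted p = 0.125). SPP1 lost it without untreated library 1 (−0.93, adjusted p = 0.0742), 2 (−0.90, adjusted p = 0.0881) or 3 (−0.95, adjusted p = 0.0661) and without treated library 1 (−0.56, adjusted p = 0.185). DESeq2 gave adjusted p = 0.0527 for CLDN2 and 0.0583 for SPP1.

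The targets that rose in SDS22-degron cells included cell-cycle and adhesion genes. CDKN1A, which encodes the cell-cycle inhibitor p21, rose from 503 ± 53.7 to 823 ± 69.2 CPM (log2 fold change 0.71, adjusted p = 1.18e-06) and was at 263 ± 9.20 and 273 ± 20.4 CPM in untreated and treated parental cells. CDH1, the gene of E-cadherin, rose from 94.4 ± 4.45 to 189 ± 7.29 CPM (1.00, adjusted p = 4.94e-06), LRP5, a WNT co-receptor gene, from 145 ± 6.37 to 212 ± 13 CPM (0.54, adjusted p = 2.21e-05), and ALOX5, the gene of 5-lipoxygenase, from 5.38 ± 0.814 to 9.27 ± 1.49 CPM (0.79, adjusted p = 0.00343). GADD45A, a stress-response gene, rose from 34.1 ± 3.60 to 53.5 ± 2.47 CPM in SDS22-degron cells (0.65, adjusted p = 0.000703) and fell from 54.1 ± 13 to 35.4 ± 6.06 CPM in parental cells (−0.61, adjusted p = 0.00264).

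**Figure D3:**
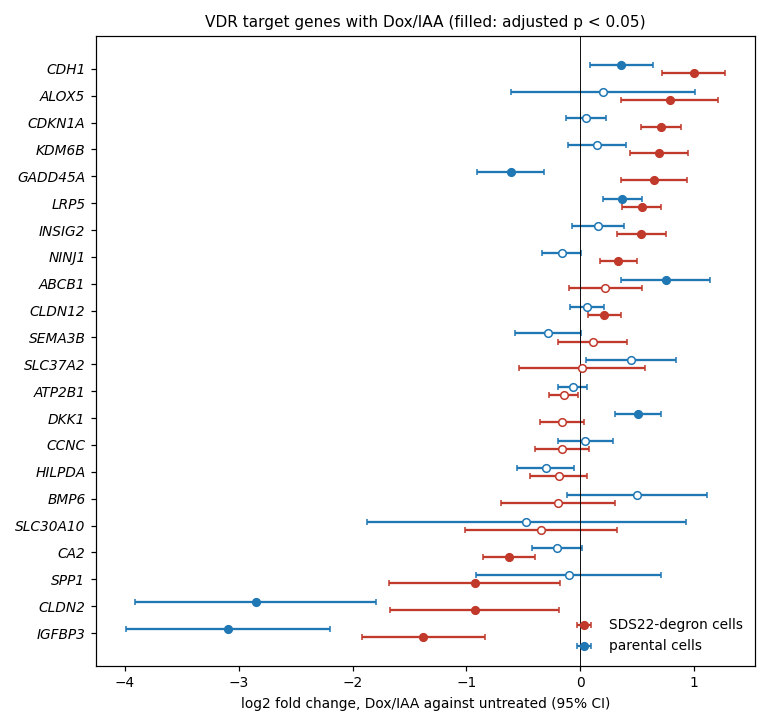
Log2 fold change with Dox/IAA and 95% confidence interval for the 22 tested VDR target genes other than CYP24A1, in SDS22-degron cells (red) and parental cells (blue), with filled points where the adjusted p was under 0.05. IGFBP3 and CLDN2 lie left of 0 in both lines, and GADD45A lies on opposite sides of 0.

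Several targets separated the lines without Dox/IAA. DKK1, which encodes a WNT inhibitor, was at 629 ± 7.63 CPM in untreated SDS22-degron and 127 ± 11.3 CPM in untreated parental cells (2.305, adjusted p = 8.85e-12). SLC30A10, a manganese exporter gene (2.32, adjusted p = 0.000574), ALOX5 (2.19, adjusted p = 2.32e-05), the drug efflux pump gene ABCB1 (1.17, adjusted p = 7.27e-05) and BMP6, which encodes a bone morphogenetic protein (1.06, adjusted p = 0.00632), were likewise higher. SLC37A2, a sugar-phosphate exchanger gene, was lower (−1.57, adjusted p = 4.34e-05). Between the treated lines DKK1 (1.64), SLC30A10 (2.45), ALOX5 (2.78), ABCB1 (0.64), IGFBP3 (2.61), CLDN2 (2.11) and CDKN1A (1.59) were higher in SDS22-degron cells, with an adjusted p of at most 0.00472, and SLC37A2 was lower (−2.0, adjusted p = 8.73e-07). BMP6 was at 0.36 and did not pass (adjusted p = 0.27).

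Of 11 genes of vitamin D metabolism and transport 6 were tested, and 1 or 2 of them passed in each comparison of a pair of groups. Over all tested genes, 26% were called higher and 25.5% lower with Dox/IAA in SDS22-degron cells, and 15.9% and 15.7% in parental cells. These shares were 21.8% and 23.1% between the treated lines, and 13.2% and 15% between the untreated lines. In SDS22-degron cells 2 rose with Dox/IAA. CYP2R1, the principal hepatic 25-hydroxylase, rose from 11.1 ± 1.14 to 14.8 ± 0.721 CPM (0.41, adjusted p = 0.00267), and CYP2J2 from 0.776 ± 0.235 to 1.54 ± 0.262 CPM (0.99, adjusted p = 0.0198). CYP2J2 lost its call without SDS22-degron untreated library 2 (0.79, adjusted p = 0.0962), untreated library 3 (0.98, adjusted p = 0.0507) or treated library 1 (0.84, adjusted p = 0.0861). DHCR7, which draws the precursor 7-dehydrocholesterol into cholesterol synthesis, was at 0.37 (adjusted p = 0.0775). It passed under 6 of 17 alternatives, and its value ranged from 0.097 without SDS22-degron treated library 3 (adjusted p = 0.632) to 0.565 without treated library 2 (adjusted p = 0.00558). In parental cells the endocytic receptor gene CUBN was the single gene that rose (0.86, adjusted p = 0.041). The call of CUBN was lost with DESeq2 (adjusted p = 0.0581) and without parental untreated library 1 (0.76, adjusted p = 0.123) or 3 (0.83, adjusted p = 0.0978) or treated library 1 (0.77, adjusted p = 0.123) or 3 (0.75, adjusted p = 0.136). With both lines treated, DHCR7 was higher in SDS22-degron cells (0.61, adjusted p = 0.00678) and PDIA3 lower (−0.31, adjusted p = 0.00495), and between the untreated lines PDIA3 was lower (−0.39, adjusted p = 0.00167). This call of DHCR7 was lost without SDS22-degron treated library 3 (0.36, adjusted p = 0.0688).

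CYP24A1 and CYP27B1 take their electrons from ferredoxin and ferredoxin reductase in mitochondria. Of 8 mitochondrial P450 and electron donor genes 3 were tested, and none passed for Dox/IAA in either line. Over all tested genes, 26% were called higher and 25.5% lower in SDS22-degron cells, and 15.9% and 15.7% in parental cells. In edgeR's quasi-likelihood test FDX1 was at 0.21 (p adjusted to 0.057), CYP27A1 at 0.32 (0.396) and FDXR at 0.10 (0.469) in SDS22-degron cells. FDX1 passed under 7 of 17 alternatives. FDXR was higher in SDS22-degron than in parental cells, from 77.3 ± 11.8 to 97.6 ± 1.37 CPM untreated (0.34, adjusted p = 0.0299) and from 67.9 ± 7.74 to 105 ± 16.7 CPM treated (0.62, adjusted p = 0.000179). The untreated call was lost without parental untreated library 1 (0.24, adjusted p = 0.149) or 3 (0.33, adjusted p = 0.0734) and without SDS22-degron untreated library 1 (0.35, adjusted p = 0.0647), 2 (0.33, adjusted p = 0.0836) or 3 (0.34, adjusted p = 0.071).

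RXR also pairs with other nuclear receptors, and 11 of 16 genes of this family were tested. With Dox/IAA in SDS22-degron cells 6 rose and none fell, beside 26% and 25.5% of all genes, with a median log2 fold change of 0.32. In parental cells 4 rose (NR4A1, PPARA, PPARD and THRB) and 2 fell (NR4A2 and PPARG), beside 15.9% and 15.7%. The effect of Dox/IAA differed between the lines for 1 of the 11, NR4A2. PPARA, a receptor for fatty acids, rose from 44.6 ± 3.08 to 87.3 ± 15.1 CPM in SDS22-degron cells (0.97, adjusted p = 1.79e-06) and from 26.9 ± 2.79 to 46.6 ± 6.81 CPM in parental cells (0.79, adjusted p = 0.000134). PPARD rose by 0.47 in SDS22-degron cells (adjusted p = 2.91e-05). NR4A2, an orphan receptor, rose in SDS22-degron cells (0.72, adjusted p = 0.000754) and fell in parental cells (−0.63, adjusted p = 0.00358). PPARG was lower in SDS22-degron than in parental cells, at 19.8 ± 1.10 against 48.0 ± 5.95 CPM untreated (−1.28, adjusted p = 3.37e-07) and at 16.4 ± 1.26 against 33.8 ± 5.99 CPM treated (−1.05, adjusted p = 1.83e-06). Between the treated lines 3 genes of this family were higher (NR4A1, PPARA and RARA) and 3 lower (NR1H3, PPARG and RARG) in SDS22-degron cells, beside 21.8% and 23.1% of all genes. Between the untreated lines 2 were higher (NR4A1 and PPARA) and 5 lower (NR1H3, NR4A2, PPARG, RARG and THRB), beside 13.2% and 15%. Several of these calls were lost under some of the 17 alternatives. For Dox/IAA in parental cells these were NR4A1 (5 alternatives, 0.278 to 0.518), THRB (3, 0.481 to 0.680) and PPARD (3, 0.172 to 0.291). The call of PPARD was lost without parental untreated library 1 or 2 or treated library 3, that of THRB without untreated library 1 or treated library 2, and that of NR4A1 without untreated library 1 or 2 or treated library 3. Between the lines, RARG treated was lost under 7 (−0.318 to −0.188), among them without parental library 1 or 3 or SDS22-degron library 1 or 2, and THRB untreated under 9 (−0.638 to −0.456), among them without each single library of these groups but parental library 1.

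All 13 coregulator genes of VDR and RXR were tested. With Dox/IAA in SDS22-degron cells 5 rose (CREBBP, EP300, NCOA1, NCOA2 and NCOA3) and 4 fell (BAZ1B, CARM1, MED1 and SMARCA4), beside 26% and 25.5% of all genes. In parental cells NCOA1, NCOA2 and NCOA3 were among those that rose, and 5 fell (BAZ1B, CARM1, HR, NCOR1 and SMARCA4), where 15.7% of all genes were called lower. The p160 coactivator genes NCOA2 (0.77, adjusted p = 1.85e-07) and NCOA3 (0.56, adjusted p = 1.69e-06) rose in SDS22-degron cells. BAZ1B, a subunit of a chromatin remodeller that interacts with VDR, fell from 337 ± 3.66 to 240 ± 18.6 CPM (−0.49, adjusted p = 3.97e-06). Between the treated lines 4 were higher (EP300, NCOA1, NCOA3 and NCOR1) and 4 lower (BAZ1B, CREBBP, MED1 and SMARCA4), and between the untreated lines NCOA1 was higher (0.23, adjusted p = 0.0255) and NCOA2 (−0.50, adjusted p = 9.16e-05) and CREBBP (−0.39, adjusted p = 0.000336) lower. The shares over all genes were 21.8% higher and 23.1% lower treated, and 13.2% and 15% untreated. Calls with small changes were again lost under some of the 17 alternatives. In parental cells BAZ1B (−0.17, adjusted p = 0.0439) lost its call under 11 (−0.199 to −0.114), among them library size only and without each single library but untreated library 3. NCOR1 lost it under 7 (−0.279 to −0.163), among them without parental untreated library 1 or treated library 2 or 3, NCOA2 under 2 (0.220 to 0.308), without untreated library 2 or treated library 3, and SMARCA4 under library size only (−0.145). EP300 in SDS22-degron cells lost it under 6 (0.160 to 0.232), among them without each single library but treated library 2. Between the treated lines SMARCA4 lost it under 9 (−0.171 to −0.126), among them without each single library, and CREBBP under 2, without parental library 3 or SDS22-degron library 2 (−0.19 each). Between the untreated lines NCOA1 lost it under 4 (0.190 to 0.281), among them without parental library 3 or SDS22-degron library 1 or 3.

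Over the 12 libraries, the genes whose log2 CPM followed CYP24A1 most closely among 14001 genes were STX10 (Pearson r = 0.988), FAAP100 (0.971), NR2F1 (0.970), METRN (0.966) and TRIM65 (0.965). Among the genes most opposed to it were SNX2 (−0.969) and GLIPR2 (−0.965). All of these points share the same 12 libraries and the same group structure. NR2F1, an orphan nuclear receptor gene, was the one with changes of similar size, falling from 251 to 87.2 CPM with Dox/IAA in parental cells and from 107 to 46.2 CPM in SDS22-degron cells. The other 4 positive genes spanned smaller folds, as STX10 did with 76.8, 57.0, 60.8 and 47.6 CPM in the same order. Within the vitamin D axis, r with CYP24A1 was 0.611 for CYP27B1, −0.0947 for RXRB, −0.231 for VDR and −0.718 for RXRA. Counted from the highest r among the 14001 genes, these ranked 3246, 7530, 8247 and 11640, so none was among the closest or most opposed genes.

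None of the 5 nearest tested genes on each side of CYP24A1 on chromosome 20 fell as far as CYP24A1 with Dox/IAA. The same held between the untreated lines. The nearest tested gene, PFDN4, a prefoldin subunit gene 33.9 kb away, was at −0.16 for Dox/IAA in SDS22-degron cells (adjusted p = 0.206), at −0.24 in parental cells (adjusted p = 0.0687) and at −0.37 between the untreated lines (adjusted p = 0.00812). ZNF217, 543.5 kb away on the other side, was at 0.06, 0.00 and −0.33 in the same 3 comparisons. Of the 5 nearest tested genes on each side, AURKA, a mitotic kinase gene 2195.4 kb away, was the only one that fell by more than 1 on the log2 scale with Dox/IAA in SDS22-degron cells (−1.51, adjusted p = 2.53e-08), and its value in parental cells was −0.13 (adjusted p = 0.451). ATP9A rose by 1.63 in SDS22-degron cells (adjusted p = 3.54e-09) and by 0.67 in parental cells (adjusted p = 0.000214). ZFP64 (0.34, adjusted p = 0.00487) and FAM210B (0.60, adjusted p = 6.14e-06) rose in SDS22-degron cells. RPL12P4 was lower with Dox/IAA in SDS22-degron cells (−0.38, adjusted p = 0.00199) and in parental cells (−0.47, adjusted p = 0.000883). ERP29P1 was lower in parental cells (−0.36, adjusted p = 0.00202). Between the untreated lines, log2 fold changes of the 10 neighbours ranged from −0.43 to 0.97, against −2.01 for CYP24A1, and the median over chromosome 20 was 0.06.

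**Figure D4:**
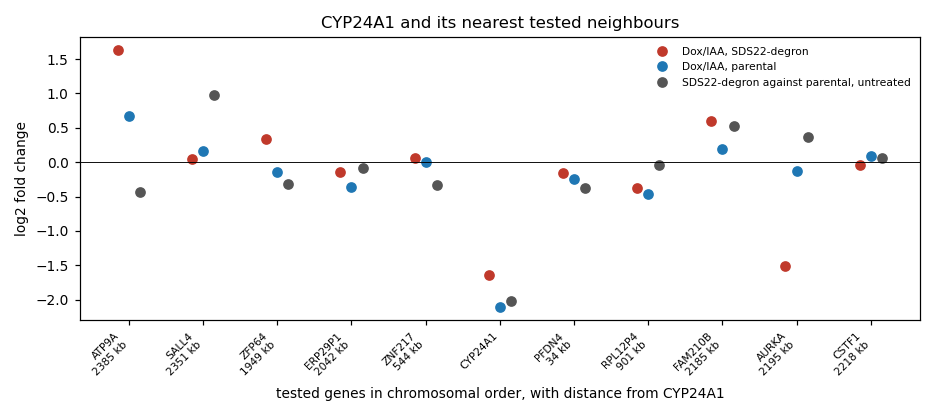
Log2 fold changes of CYP24A1 and the 5 nearest tested genes on each side, in chromosomal order with the distance from CYP24A1 in kb, for Dox/IAA in SDS22-degron cells (red), Dox/IAA in parental cells (blue) and untreated SDS22-degron against untreated parental cells (grey). CYP24A1 lies at −1.64, −2.11 and −2.01, whereas PFDN4 beside it lies between −0.37 and −0.16.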

How the data were processed

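RNA-seq was analysed in 12 HCT116 libraries. The authors deposited raw read counts per gene, without normalization, and the percent of G and C of each gene. The submitters' processing notes name cutadapt 1.15, Bowtie2 2.3.3.1, STAR 2.5.2b, SAMtools 1.5, featureCounts 1.5.3 and GRCh38. Libraries were stranded and poly-A selected, and were read from one end over 75 bases. Columns were matched to samples by their labels.

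Genes were filtered with filterByExpr (minimum count 10), which left 16657 genes. TMM factors were applied, and all libraries entered one model of the 4 group means in edgeR 4.0.16 (R 4.3.3), tested by its quasi-likelihood F test. This test replaced the study's likelihood ratio test, which was an alternative. Benjamini-Hochberg adjustment covered all tested genes, and called means an adjusted p under 0.05. The difference between Dox/IAA effects is the interaction term. Correlations rest on log2 CPM (prior count 2) of genes with a mean of at least 1 CPM. Depth was between 12133915 and 14657508 counts, log2 fold changes had a median standard error of 0.110, and the procedure was tested on simulated data.

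The 5 genes and the lists were chosen with earlier results of these data known. Named from each list were genes with an adjusted p under 0.05 that changed by more than 1 on the log2 scale in any comparison, the 3 with the smallest p for Dox/IAA in SDS22-degron cells, and those behind counts of 5 or fewer. The 5 genes most and 3 least correlated with CYP24A1 and its 5 tested neighbours on each side were named too. Same-numbered libraries deviated together, with every correlation above 0.1, between the parental groups (0.124 to 0.246) and between the treated groups (0.101 to 0.138). Between the untreated lines the correlations were lower but all positive (0.0584 to 0.118). For Dox/IAA in SDS22-degron cells they ranged from −0.00926 to 0.0953. Some genes that these rules name are not reported here. Alternatives were DESeq2 1.42.0, other normalizations and filters, a GC correction, a replicate block, only the groups compared, and each library left out in turn.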

Additional observations from a re-analysis of the deposited data

Results flagged for a closer look

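The effect of Dox/IAA differed between SDS22-degron and parental cells, by the interaction term of edgeR's quasi-likelihood fit, for 2 of the 4 vitamin D axis genes tested and for 8 of the named list genes. Values are the log2 effect in SDS22-degron cells minus that in parental cells. Over all tested genes, 6.03% were called higher and 8.35% lower for this term. The values were 0.35 for RXRA and 0.44 for RXRB, and these calls held under 19 and 17 of 22 alternatives. Among VDR targets they were 0.65 for CDKN1A (adjusted p = 0.0011), 1.26 for GADD45A (adjusted p = 0.000325), 0.64 for CDH1 (adjusted p = 0.029), 1.72 for IGFBP3 (adjusted p = 0.0405) and −0.67 for DKK1 (adjusted p = 0.00224). NR4A2 had 1.36 (adjusted p = 0.000391), and the coregulator genes NCOA2 and BAZ1B had 0.52 (adjusted p = 0.00322) and −0.32 (adjusted p = 0.0231). GADD45A and NR4A2 rose in one line and fell in the other. IGFBP3 fell in both lines, with the larger fall in parental cells, where its mean was 0.260 CPM after Dox/IAA. The differences of CDKN1A, GADD45A, DKK1, NR4A2 and NCOA2 kept their call without any single library. Those of CDH1, IGFBP3 and BAZ1B lost it under 7, 8 and 5 of 22 alternatives, all of them left-out libraries. Groups of 3 libraries are too small for a check of single outlying libraries.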

How the results depend on the processing

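CYP24A1 kept its call for Dox/IAA in SDS22-degron cells under all 17 alternatives, with values from −1.89 to −1.36. RXRA for Dox/IAA in SDS22-degron cells and between the treated lines, and RXRB for Dox/IAA in SDS22-degron cells and between the untreated lines, did so too. No called result changed direction. Values short of the threshold crossed 0 for CYP27B1 between the untreated lines (−0.168 to 0.062), between the treated lines (−0.201 to 0.004) and in the interaction (−0.155 to 0.075) and for RXRB between the treated lines (−0.071 to 0.028). VDR and CYP27B1, which lay just short of the threshold, passed it under some alternatives, and the cause was not tested. For Dox/IAA in SDS22-degron cells, VDR passed with the likelihood ratio test (−0.252), the GC correction (−0.261) and only the groups compared (−0.258), and CYP27B1 with the likelihood ratio test (−0.309) and the GC correction (−0.340). For VDR between the untreated lines this held with library size only (0.302), the upper quartile (0.310) and only the groups compared (0.279). For the interaction of VDR it held with the likelihood ratio test (−0.446), library size only (−0.464), the upper quartile (−0.450) and no filter (−0.448).

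With each library left out in turn, VDR ranged from −0.363 to −0.197 for Dox/IAA in SDS22-degron cells, from 0.253 to 0.330 between the untreated lines, from −0.286 to −0.099 between the treated lines and from −0.560 to −0.389 in the interaction. CYP27B1 ranged from −0.430 to −0.200 for Dox/IAA in SDS22-degron cells, and the interaction from 0.293 to 0.387 for RXRA and from 0.313 to 0.491 for RXRB.

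At the study's cut-off (unadjusted p under 0.05, with a change of more than 1 on the log2 scale) list genes were counted with p from the quasi-likelihood test. They numbered 1 for Dox/IAA in SDS22-degron cells, 2 in parental cells, 8 between the treated and 8 between the untreated lines. The share of all tested genes at this cut-off was not computed, so these counts have no background to be judged against. Scaling by library size only gave 3503 higher and 1958 lower genes for Dox/IAA in parental cells, against 2656 and 2608 with TMM. Of 125 results on 44 named list genes, 91 kept their side of the threshold under every alternative, 25 lost and 9 gained a call under at least 1.

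For each of the 12 libraries, the mean correlation with libraries of the other groups was highest for its own number. Single same-number pairs ranged from −0.0569 to 0.246. Same-numbered libraries correlated below 0.1 in at least 1 pair for Dox/IAA in SDS22-degron cells (−0.00926 to 0.0953) and between the untreated lines (0.0584 to 0.118). By this cut-off of 0.1, which was a choice, the numbers were taken to pair libraries only for Dox/IAA in parental cells and between the treated lines. There the replicate block changed no call of a named gene. The fit behind the main results had no block in any comparison, so whether VDR and CYP27B1 passed elsewhere depended partly on this choice. With the replicate block, values past the threshold were −0.256 (VDR) and −0.310 (CYP27B1) for Dox/IAA in SDS22-degron cells, 0.275 (VDR) between the untreated lines and −0.445 (VDR) in the interaction. With the block and the GC correction they were −0.265, −0.340, 0.270 and −0.449. For an interaction, all 4 groups are needed, so only the groups compared gives no other value. Differences of 0.2 or less on the log2 scale lie within 2 median standard errors at this depth and number of libraries.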
